A study of Homo sapiens and Mus musculus with 16 samples.

Results

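The RNA held in P-bodies of human neurons was set against that held in P-bodies of human liver bud progenitors, as shares of each library rather than relative to the cytoplasm. The comparison used 4 of the 16 libraries of the series, 2 from sorted neuron P-bodies and 2 from sorted liver bud progenitor P-bodies, chosen by their labels and column names. The study purified fluorescent LSM14A particles from lysed cells and sequenced their RNA (P-body-seq) beside the cytoplasmic fraction from which they were sorted, to ask which transcripts P-bodies hold in each cell type. The neurons (labelled d20_neurons) and the liver bud progenitors (labelled liver_bud_progenitors) were both differentiated from UCLA4, a human embryonic stem cell line that carried an EGFP-LSM14A construct integrated at the AAVS1 locus, so all 4 libraries share the transgene and the parent line. RNA was extracted with a miRNeasy Micro kit, labelled polyA RNA, and made into cDNA with a V4 ultra and Nextera XT kit. The study reports that the sorted particles of its cell types differed in size and fluorescence. Whether the gates took particles of like size and fluorescence from the 2 cell types compared here was not tested. No source used here says whether the UCLA4 line was a single clone.

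P-bodies are cytoplasmic granules of RNA and protein that form without a membrane. They gather messenger RNAs that are not being translated together with decapping and deadenylation factors, the helicase DDX6, the scaffold LSM14A and the Argonaute and TNRC6 proteins of the microRNA pathway. Their messages can be stored, degraded or returned to ribosomes, and they have been described as rich in messages for regulators and poor in messages for housekeeping proteins.

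The 4 libraries held between 8638343 and 10270471 counts, and a floor of 3 counts per library came to between 0.292 and 0.347 CPM, which are counts scaled by the total of the library. Levels below are CPM, with replicate 1 and 2 of the neuron pool always given before replicate 1 and 2 of the liver bud pool where no pool is named, and differences are log2 values, neuron minus liver bud, fitted with edgeR after TMM scaling, each with its standard error (SE). Replicates correlated across all genes with a Spearman rho of 0.915 in neurons and 0.967 in liver bud progenitors, against 0.812 to 0.821 between the cell types. Among the 6504 genes averaging 20 CPM or more, the SD of the log2 difference was 0.38 between the neuron replicates, 0.19 between the liver bud replicates and 1.86 to 1.91 between the cell types. The neuron replicates thus lay farther apart than the liver bud replicates, and a chi-square of their counts without ribosomal RNA came to 9.96 per gene against 2.69, both above sampling noise. The study states that its sequencing assays used at least 2 biological replicates. How the cultures behind these 4 libraries were separated is not described. The p-values therefore measure the spread between these libraries, part of which may be technical. An exact permutation test of 2 libraries against 2 cannot go below 0.333, and all adjusted p-values come from edgeR's quasi-likelihood test across all genes, two-sided, with Benjamini-Hochberg adjustment.

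The cell type labels were checked against marker genes. All 13 neuron markers were higher in the neuron pool, with a summed level of 12416 and 12432 CPM against 650 and 663. Of 20 liver bud markers, 15 were higher in the liver bud pool and PROX1 was higher in the neuron pool, and the summed level was 277 and 280 CPM in neurons against 790 and 832. ALB (albumin), which marks mature hepatocytes, was at 0 and 0.211 CPM in neurons and 0.105 and 0.195 CPM in liver bud progenitors, all under the floor. AFP (alpha-fetoprotein) was at 0 and 0.106 CPM against 6.71 and 5.45, a ratio of 110 with a 95% counting interval of 19.3 to 4367. TTR (transthyretin) stood at 0.579 and 0.106 CPM against 47.5 and 44.5, and HNF4A, a liver transcription factor, at 4.86 and 1.06 against 13.8 and 15.2. The pluripotency factors POU5F1 and NANOG were also higher in the liver bud pool, with POU5F1 at 1.74 and 0.528 CPM against 82.5 and 95.4. The liver bud pool therefore held early hepatic messages, almost no albumin message and messages of the pluripotent state. Lists for other cell types were at low sums in both pools. Mesenchyme markers (13 genes, 1 higher in neurons and 5 in liver bud) summed to 81.1 and 82.4 CPM against 289 and 283, and endothelium and blood markers (11 genes, 1 and 2) to 58.6 and 54.4 CPM against 87.0 and 93.9. Neural crest markers (12 genes, 4 and 4) summed to 473 and 472 CPM against 255 and 255, glia markers (11 genes, 3 and 2) to 147 and 148 against 61.2 and 61.0, and pancreas, gut and lung markers (9 genes, 1 and 2) to 271 and 226 against 139 and 140. Their part in the differences below was not tested.

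The pools differed in 9112 of 22166 genes tested, or 41.1%. Of these, 4084 genes were higher in neuron P-bodies, which is 18.4% of those tested, and 5028 were higher in liver bud P-bodies, which is 22.7%. Among the 15349 genes averaging 1 CPM or more, 57.3% were called in either direction. These shares are the background for the counts of list members given below, but they cover rare messages too. Of the 6504 genes averaging 20 CPM or more, 2046 were called toward neurons and 3007 toward liver bud progenitors, with a median of -0.27. For lists of abundant genes the shares over all genes are therefore a low background. Which side had more calls depended on processing. With the trend with transcript GC content taken out of each library the counts were 4404 toward neurons and 3853 toward liver bud progenitors, after a stricter filter on low counts 4811 and 4589, and with scaling by library size only 4553 and 4520. A difference that was called and at least 2-fold was found for 3227 genes toward neurons (14.6%) and 3906 toward liver bud progenitors (17.6%). At 16-fold the order of the counts was the other way round, with 837 genes toward neurons and 479 toward liver bud progenitors. In both bulk pools, fewer cells of a type, less RNA per cell and a smaller part of a message reaching the particles cannot be told apart. Only 634 genes (2.86%) had a 95% interval of the difference within -0.5 and 0.5, and across all genes tested the median difference was 0.18.

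Few messages were at 0 in a single pool. At 1 CPM or more in both libraries of their pool, 88 genes in neurons and 71 in liver bud progenitors had no count in either library of the other pool, and at 10 CPM or more these numbers fell to 2 and 9. Allowing up to 1 CPM in the other pool, 1490 genes were at 1 CPM or more in neurons only and 657 in liver bud progenitors only. The neuron pool spread over more genes, with 15467 and 15570 genes at 1 CPM or more against 13851 and 13884, and was more concentrated at the top. Its 10 most abundant genes took 5.30% and 5.32% of counts outside ribosomal RNA, against 3.45% and 3.42% in liver bud progenitors. By CPM, which is not corrected for length, the lists of the 10 most abundant genes shared no gene, those of the top 100 shared 35 (35% of each list), and those of the top 1000 shared 533 (53.3%). Ranked per base of transcript, the lists of 10 shared 5 genes, RN7SK, RN7SL2, PTMA, H4C5 and GAPDH.

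Neuron P-bodies were led by a message of the neuronal cytoskeleton. MAP1B (microtubule-associated protein 1B, hg38 chr5:72107234-72209565, plus strand) took 17755 and 18325 CPM in neurons against 1666 and 1683 in liver bud progenitors, a log2 difference of 3.29 ± 0.05 (adjusted p = 4e-10). MAP2 (chr2:209424047-209734147, plus strand), which binds dendritic microtubules, was at 3431 and 3372 CPM against 16.1 and 13.2. DCX (doublecortin, chrX:111293779-111412429, minus strand), which marks migrating young neurons, was at 2850 and 2989 CPM against 87.7 and 88.8. These 3 genes and TUBA1A, an alpha-tubulin at 2667 and 2830 CPM against 213 and 192, stood far above the liver bud libraries in both neuron libraries. TUBA1A has close copies, between which reads may be divided.

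The same top 10 by CPM held regulators of transcription and chromatin with long transcripts. CHD7, a chromatin remodeller, was at 4577 and 4755 CPM against 667 and 717 (log2 2.61 ± 0.06, edgeR adjusted p = 2.75e-09). ZNF462, a zinc finger protein, was at 3764 and 3746 CPM against 831 and 862. KMT2A, a histone methyltransferase, was at 3010 and 3046 against 1202 and 1241. ZFHX4, a homeobox and zinc finger transcription factor, showed the widest gap of these, at 2813 and 2871 CPM against 64.6 and 61.0, while BAZ2B, a bromodomain protein, showed the narrowest, at 2500 and 2542 against 1276 and 1243. Ranked per base of transcript, none of these 5 was among the 15 most abundant of the neuron pool, whereas MAP1B was second. RN7SK, the RNA of the 7SK particle that holds back transcription elongation, was at 2549 and 2617 CPM against 918 and 947. It is short and is not known to be polyadenylated, and per base of transcript it was the most abundant RNA outside ribosomal RNA in both pools.

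Liver bud P-bodies were led by messages of the translation machinery. PABPC1, the cytoplasmic poly(A)-binding protein, was at 1467 and 1379 CPM against 8866 and 8804 (log2 -2.78 ± 0.06, edgeR adjusted p = 1.39e-09). EEF1A1, which brings aminoacyl-tRNA to the ribosome, was at 1139 and 1207 CPM against 3249 and 3150, and RPL4, a protein of the large ribosomal subunit, at 414 and 442 against 2037 and 1961. Each was higher in both liver bud libraries than in either neuron library, and the pools did not overlap in either direction for 72% of all genes tested. CCNG1 (cyclin G1, a p53 target, chr5:163437569-163446151, plus strand) was at 78.6 and 79.1 CPM against 2667 and 2618, a log2 difference of -5.21 ± 0.07. NAP1L1, a histone chaperone, was at 541 and 635 against 2644 and 2655, and FN1 (fibronectin) at 163 and 160 against 1913 and 2051. TET1, which oxidises 5-methylcytosine, was at 392 and 396 CPM against 1846 and 1844. PRRC2C and PTMA were higher in liver bud progenitors by less, with log2 differences of -0.78 and -0.49. MKI67, the last of the liver bud top 10, was as abundant in neurons, at 1872 and 2035 CPM against 1836 and 1853 (log2 -0.06, adjusted p = 0.478).

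**Figure D1:**
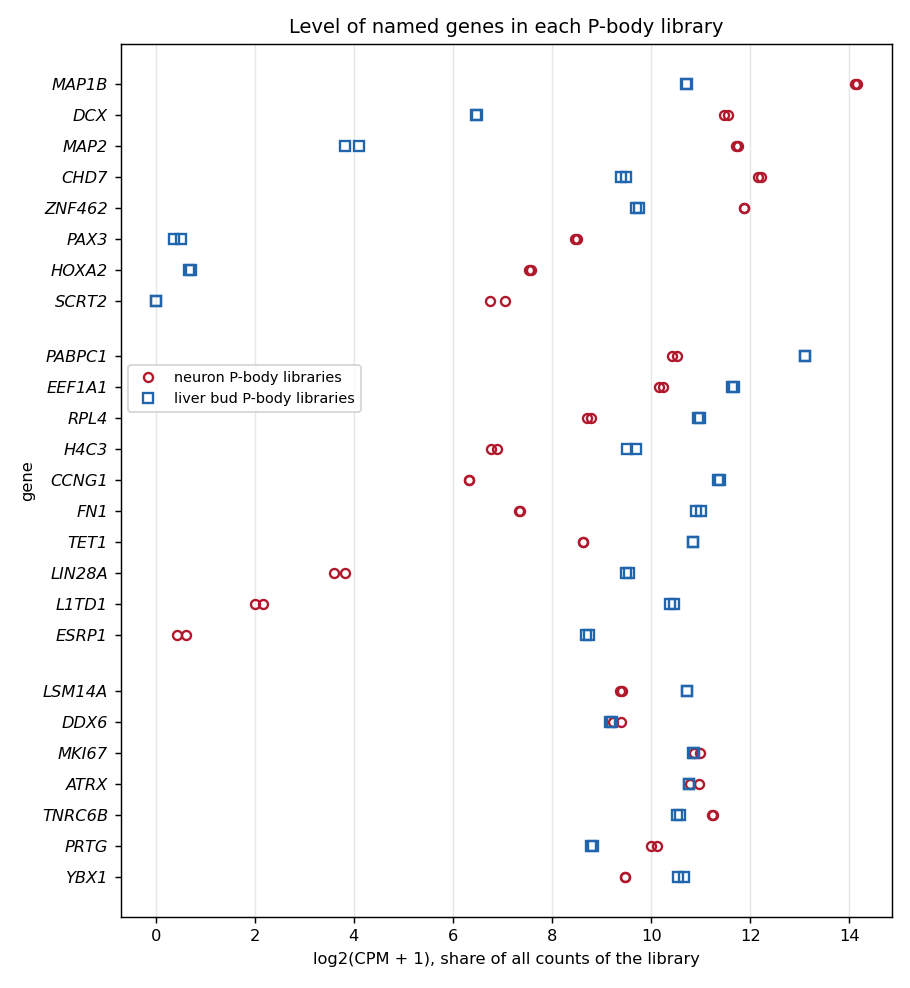
Level of named genes in each P-body library, as log2 of CPM plus 1, with a red circle for each neuron library and a blue square for each liver bud library. The 8 genes at the top lie to the right in neurons, the 10 in the middle lie to the right in liver bud progenitors, and DDX6, MKI67 and ATRX at the bottom show close or overlapping levels.

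The largest differences were carried by developmental regulators on the neuron side. SCRT2, a neuronal zinc finger repressor, was at 132 and 107 CPM in neurons and had no count in either liver bud library, at least 395-fold higher against a floor of 3 counts per library. PAX3, a factor of the dorsal neural tube and neural crest, was at 364 and 350 CPM against 0.419 and 0.292 (log2 9.79 ± 0.17). MAB21L1, EBF2, NR2F1, NRN1, ST18, EBF1, SCRT1, RFX4 and PHACTR3 were also among the genes with the largest difference at 50 CPM or more. Of the genes named here, all but NRN1, an extracellular neurite growth protein, PHACTR3, an actin and phosphatase regulator, and MAB21L1 encode transcription factors. MAB21L1 was at 684 and 679 CPM against 0.524 and 1.17, and PHACTR3, with 2 counts in the liver bud pool, had a ratio of 512 with an interval of 141 to 4231.

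On the liver bud side the same rule gave a mixed set of 12 genes. ESRP1, which directs epithelial splicing, was at 0.347 and 0.528 CPM against 410 and 428 (log2 -9.99 ± 0.16). L1TD1 (chr1:62194849-62212328, plus strand), an RNA-binding protein of pluripotent cells, was at 3.01 and 3.49 CPM against 1408 and 1334. CLDN6, a tight junction protein of embryonic epithelia, was at 1.27 and 0.423 CPM against 234 and 239, and KRT18, a keratin of simple epithelia, at 0.232 and 0.845 against 121 and 121. FLT1, TDGF1, SELENOP, TC2N, the pseudogene ANKRD18CP and the noncoding RNA LINC00678 also passed, and LINC00678 had a ratio of 345 with an interval of 118 to 1673. RGPD8 and RNA45SN4 had no count in neurons and were at least 787-fold and 420-fold lower there. RGPD8 belongs to a family of near-identical copies and RNA45SN4 is a ribosomal RNA copy, so reads can be divided among copies and both values are uncertain. Of RGPD8, the 2 liver bud libraries held 359 and 162 CPM, a wider gap between replicates than for the other genes named here.

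Messages for the neuronal cytoskeleton and neurite growth were higher in neurons throughout. All 35 genes of this list were called toward neurons, where 18.4% of all genes were, with a median log2 difference of 3.62 beside 0.18 over all genes. Together they took 4.62% and 4.71% of counts in neuron P-bodies against 0.429% and 0.431%, a ratio of 10.9. The ratio of the list's shares in the cytoplasm of the same cells was 10.9 as well, but the cytoplasm median was higher, at 4.31. The interaction test called a smaller difference in P-bodies for 17 of the 35 (8.50% over all genes) and a larger difference for 2 (9.21%), while under scaling by library size only the counts were 6 and 8. CNTN2, an axonal adhesion protein, differed most, at 369 and 333 CPM against 1.26 and 0.876.

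Messages for synaptic vesicles, transmitter release and receptors followed. Of 34 genes, 28 were higher in neurons and 3 in liver bud progenitors, with a median log2 difference of 3.64. SYT11, a synaptotagmin, was at 265 and 267 CPM against 16.2 and 19.9, and GRIN2B, an NMDA receptor subunit, at 276 and 253 against 11.1 and 13.9. SLC17A6, the vesicular glutamate transporter, differed most, at 143 and 153 CPM against 0.629 and 0.682. The whole list took only 0.252% and 0.259% of neuron counts, against 0.0581% and 0.0584%.

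Of 25 neuronal RNA-binding proteins, 18 were higher in neurons and 3 in liver bud progenitors, with a median of 2.54. RBFOX2, a splicing regulator, was at 1964 and 1826 CPM against 289 and 301, and NOVA2, a neuronal splicing regulator, at 615 and 574 against 14.5 and 10.4. ELAVL4, which stabilises neuronal messages, differed most, with 269 and 277 CPM against 1.57 and 1.75. FXR1, a relative of the fragile X protein, was slightly lower in neurons, at 164 and 179 CPM against 218 and 218, and its difference of -0.49 turned to 0.83 when the trend with transcript GC content was taken out of each library.

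Messages of neural progenitors were held in the neuron pool as well. Of 27 tested, 22 were higher in neurons and 1 in liver bud progenitors, with a median of 3.14. PAX6, a transcription factor of neural progenitors, was at 413 and 432 CPM against 2.73 and 0.974 (log2 7.70 ± 0.23). SOX4 was at 289 and 337 CPM against 79.2 and 75, and CDH2 (N-cadherin) at 479 and 504 against 162 and 164. PRTG (protogenin), a receptor of the early neural tube, was at 1021 and 1107 CPM against 454 and 438. The list's share of counts was 4.40 times that in liver bud P-bodies, and in the cytoplasm its share was 2.18 times. These shares weigh abundant members such as PRTG most. The list's median in the cytoplasm was 2.94, near that in P-bodies, with 22 genes higher in neurons and 2 in liver bud progenitors. By the interaction test the neuron minus liver bud difference was larger in P-bodies than in the cytoplasm for 7 of its genes (9.21% over all genes). It was smaller for 1 (8.50% over all genes). In this test differences keep their sign, so that a smaller value lies further toward the liver bud side.

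HOX genes, which encode position along the body axis, were at low levels and higher in neurons where called. Of 39 tested, edgeR called 10 toward neurons (25.6%, beside 18.4% of all genes), 0 toward liver bud progenitors and left 29 uncalled. The counts were 9 and 0 by DESeq2 and 11 and 0 at an unadjusted p under 0.05. The summed level was 278 and 288 CPM against 4.82 and 5.84. Most of this came from HOXA2 (chr7:27100354-27102686, minus strand), at 189 and 184 CPM against 0.629 and 0.584. HOXB3 followed at 38.7 and 52.2 CPM against 0.419 and 0.389, and HOXA3 at 13.8 and 12.8 against 0.105 and 0.195, a ratio of 87.5 with an interval of 29.6 to 427. All 3 belong to the anterior end of their clusters. The median of the list was 3.13, and 2.1 with genes at 0 in a pool set at their bound.

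Endoderm and liver transcription factors were mostly on the liver bud side. Of 26 tested, 16 were higher in liver bud progenitors and 4 in neurons, with a median of -3.23. GRHL2, an epithelial factor, was at 1.39 and 3.27 CPM against 145 and 129, GATA4 at 1.16 and 0.845 against 15.7 and 18.1, and FOXA1, a pioneer factor, had no count in neurons against 4.93 and 3.21, at least 12.3-fold lower. The 4 on the neuron side included PROX1 (256 and 263 CPM against 16.5 and 13.1), ONECUT2 (149 and 181 against 11.6 and 15.7) and NR2F2 (122 and 112 against 7.97 and 8.18). PROX1, ONECUT2 and NR2F2 are also used in the nervous system. Because they were the more abundant members, the summed level of the list was higher in neurons, 638 and 673 CPM against 399 and 382, while its median was lower.

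Secreted hepatic proteins were sparse in both pools. Of 23 tested, 8 were higher in liver bud progenitors and 3 in neurons, and the summed level was 65.3 and 63.0 CPM in neurons against 215 and 230. APOB, the apolipoprotein of very low density lipoprotein, gave the largest part, at 2.78 and 4.54 CPM against 107 and 118. APOE was at 0.232 and 0.317 CPM against 21.7 and 25.5, and APOA2 had no count in neurons against 8.18 and 9.83, at least 27.2-fold lower. IGF2, a fetal growth factor, was higher in neurons, at 27.7 and 16.2 CPM against 3.46 and 3.99.

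Epithelial junction and keratin messages made the clearest liver bud group. Of 28 genes, 23 were higher in liver bud progenitors and 0 in neurons by edgeR. DESeq2 gave 22 and 0, and an unadjusted p under 0.05 gave 23 and 0. The median was -5.48, and the summed level was 181 and 146 CPM against 2888 and 2984. DSP (desmoplakin) was at 6.14 and 3.80 CPM against 518 and 551, DSG2 (desmoglein 2) at 24.1 and 19.1 against 311 and 319, and CDH1 (E-cadherin) at 3.13 and 1.37 against 236 and 271. CLDN10, another claudin, had no count in neurons, at least 50.3-fold lower.

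Of 35 extracellular matrix and integrin genes, 25 were higher in liver bud progenitors and 4 in neurons, with a median of -1.92. Beside FN1, VCAN (versican) was at 559 and 620 CPM against 1283 and 1335, LAMC1 (laminin gamma 1) at 89.3 and 92.9 against 208 and 212, and ITGB1 (integrin beta 1) at 102 and 86.2 against 161 and 177. With the GC trend removed the call for ITGB1 was lost (log2 -0.05). The neuron and liver bud levels of these genes did not overlap, which was also so for 15950 of the 22166 genes tested (72%).

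Pluripotency messages were held in liver bud P-bodies at a level well above that in neurons. Of 23 tested, 17 were higher in liver bud progenitors and 2 in neurons, the median was -3.67, and the summed level was 529 and 548 CPM against 6442 and 6375. L1TD1 and TERF1, a telomere-binding protein at 58.8 and 71.4 CPM against 1607 and 1550, gave much of the sum. PODXL (podocalyxin) was at 65.9 and 75.4 CPM against 746 and 790, and LIN28A, which blocks the maturation of let-7 microRNAs, at 13.1 and 11.1 against 719 and 747.

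LIN28A also belongs to a list of the LIN28, IGF2BP and let-7 axis, of which 16 of 25 genes were higher in liver bud progenitors and 6 in neurons. TRIM71, a target of let-7 and a repressor of messages in stem cells, was at 48.7 and 50.5 CPM against 728 and 788, and DICER1, the nuclease that cuts microRNA precursors, at 382 and 457 against 881 and 894. PRTG was a member that ran the other way.

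Messages for the proteins of the P-body itself did not lean to a single pool. Of 35 genes for core, decapping and repression factors, 9 were higher in neurons and 15 in liver bud progenitors, the median was -0.07, and its sign turned under 5 alternative settings and without liver bud replicate 1. With the trend with transcript GC content taken out of each library, 14 were called toward neurons and 9 toward liver bud progenitors. DDX6, the helicase on which P-body formation depends, was at 603 and 674 CPM against 589 and 573 (log2 -0.01, 95% interval -0.18 to 0.16, edgeR adjusted p = 0.962), and with the GC trend removed its difference was 0.82. EIF4ENIF1, which carries eIF4E into P-bodies, was at 176 and 178 CPM against 37.4 and 41.7 (log2 2.02), and DCP2, the decapping enzyme, at 94.3 and 113 against 425 and 418 (log2 -2.16). EDC4, a scaffold of decapping, was at 44.3 and 32.7 CPM against 22.3 and 18.0 (edgeR adjusted p = 0.0158), a call that was lost with the GC trend removed (log2 0.43) and without liver bud replicate 2 (log2 0.69).

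LSM14A, the protein by which the particles were sorted, was at 664 and 676 CPM in neurons against 1701 and 1695 in liver bud progenitors, a log2 difference of -1.48 ± 0.06 (edgeR adjusted p = 5.21e-08). In the cytoplasm it was at 129 and 145 CPM against 1552 and 1632. Its counts include the coding part of the transgene, so the transgene and the gene itself (chr19:34172504-34229288, plus strand) cannot be told apart. The level of the sorted protein's message therefore differed between the cell types in both fractions. Its part in the other differences was not tested.

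MicroRNA processing, silencing and deadenylation factors were split in the same way, with 11 of 29 higher in neurons, 9 in liver bud progenitors and a median of 0.03 that turned to -0.07 without neuron replicate 2. With the GC trend removed the counts were 14 and 5. TNRC6B, a scaffold that ties Argonaute to deadenylases (chr22:40044817-40335808, plus strand), was at 2408 and 2415 CPM against 1469 and 1532, TNRC6A at 944 and 1001 against 710 and 722, and TNRC6C at 621 and 643 against 107 and 130. All 3 members of the TNRC6 family were called toward neurons. TUT4, which adds uridines to let-7 precursors, was at 1526 and 1466 CPM against 696 and 717. CNOT1, the deadenylase scaffold, was slightly lower in neurons, at 1061 and 1115 CPM against 1265 and 1248, a call that was lost with the GC trend removed (log2 -0.12). AGO1 and AGO2 had log2 differences of 0.78 and -0.42.

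Messages for chromatin regulators were the largest regulatory group that was higher in neurons. Of 36 genes, 22 were called toward neurons and 7 toward liver bud progenitors, with a median of 0.80. They took 2.73% and 2.81% of counts in neuron P-bodies against 1.64% and 1.67% in liver bud P-bodies, a ratio of 1.67, while in the cytoplasm their mean shares were 1.55% and 1.61%. The interaction test called a larger neuron minus liver bud difference in P-bodies than in the cytoplasm for 24 of the 36 (9.21% over all genes) and a smaller difference for 1 (8.50%). KDM6B, a histone H3 demethylase, differed most, at 148 and 115 CPM against 14.6 and 17.0, and TET2 was at 1647 and 1742 against 517 and 537 (log2 1.54 ± 0.06). BPTF, a subunit of a remodelling complex, ran the other way, at 1075 and 1201 CPM against 1802 and 1786.

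The 531 ZNF zinc finger genes held a larger part of the liver bud pool, 5.09% and 5.05% of counts against 3.66% and 3.84% in neurons. Of these, 107 were higher in neurons and 184 in liver bud progenitors, with a median of -0.08 whose sign turned when only library size was used for scaling. In either direction 54.8% were called, near the 57.3% of all genes averaging 1 CPM or more. With the GC trend removed, 174 were higher in neurons and 113 in liver bud progenitors. ZNF91, a repressor of transposable elements, was at 853 and 960 CPM against 1796 and 1739, and ZNF608 at 1746 and 1727 against 497 and 481. ZNF804A was at 17.0 and 13.1 CPM against 0 and 0.292, a ratio of 98.9 with an interval of 33.5 to 482. The difference for ZNF91 turned from -1.11 to 0.17 when the GC trend was removed. Members share similar sequences, and reads of close relatives may be divided among them.

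Ribosomal protein messages were higher in liver bud P-bodies as a group. Of 94 genes for cytosolic ribosomal proteins, a few of them related copies, 68 were called toward liver bud progenitors and 5 toward neurons, with a median of -1.21. They took 0.570% and 0.602% of counts in neuron P-bodies against 1.45% and 1.36%, while in the cytoplasm their mean shares were 0.703% and 0.806%. RPL6 was at 148 and 174 CPM against 1253 and 1151, RPL5 at 265 and 273 against 997 and 944, RPL3 at 585 and 545 against 879 and 818, and RPS3A at 18.5 and 20.3 against 184 and 165. The list's median in the cytoplasm was 0.22. With signs kept, the interaction test called 65 of the 94 as smaller in P-bodies, that is, further toward the liver bud side than in the cytoplasm (8.50% over all genes). It called 0 as larger (9.21% over all genes), with 0 by DESeq2 and 2 at an unadjusted p under 0.05. Under scaling by library size only the counts were 56 smaller and 2 larger.

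Of 35 translation factors, 20 were higher in liver bud progenitors and 3 in neurons, with a median of -0.85, and their share was 0.936% and 0.948% of counts against 2.25% and 2.22%. EIF4B, which assists the helicase of initiation, was at 722 and 742 CPM against 1399 and 1424, and EIF3E, a subunit of initiation factor eIF3, at 72.0 and 73.0 against 814 and 753. EEF1A2, the elongation factor form of neurons and muscle, ran the other way, at 51.9 and 37.0 CPM against 2.1 and 2.92. EIF4G2, which starts translation without the cap, was level, at 1357 and 1406 CPM against 1332 and 1376 (log2 -0.11 ± 0.06, edgeR adjusted p = 0.159), and its difference was 0.65 with the GC trend removed.

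Messages of replication-dependent histones, most of which end in a stem loop rather than a poly(A) tail, were also higher in liver bud P-bodies. Of 66 genes, 52 were called toward liver bud progenitors and 2 toward neurons, with a median of -1.92, or -1.78 with bounds. They took 0.117% and 0.119% of counts against 0.393% and 0.371%, while in the cytoplasm the mean shares were 0.208% and 0.215%. H4C3 (chr6:26103933-26104337, plus strand) was at 108 and 117 CPM against 832 and 733, H2AC6 at 65.4 and 57.3 against 222 and 222, and H4C4 at 27.6 and 29.3 against 162 and 154. Histone copies are nearly identical and some counts jumped between replicates, as for H4C14, at 0 and 13.5 CPM in the neuron libraries, so single copies are uncertain.

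Of 37 cell cycle and mitosis genes, 26 were higher in liver bud progenitors and 5 in neurons, with a median of -0.95. The most abundant of them were close. CENPF, a kinetochore protein, was at 1319 and 1395 CPM against 1442 and 1400, and TOP2A, the mitotic topoisomerase, at 826 and 898 against 814 and 796. CENPE, a kinetochore motor, was lower in neurons, at 346 and 431 CPM against 754 and 710, but its difference of -1.06 turned to 0.39 with the GC trend removed, as that of CENPF turned from -0.21 to 0.51 and that of TOP2A from -0.04 to 0.92. In the cytoplasm the neuron minus liver bud differences were -0.68 for MKI67, -1.35 for CENPF, -1.04 for TOP2A and -2.63 for CENPE. For these 4 genes the P-body difference was nearer to 0, and the interaction was called for each.

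Cholesterol synthesis and uptake genes were divided, with 9 of 27 higher in neurons, 5 in liver bud progenitors and a median of 0.19. SREBF2, the factor that induces the pathway, was at 239 and 247 CPM against 90.6 and 105, and FDFT1, squalene synthase, at 247 and 241 against 142 and 135. SC5D, a late enzyme of the pathway, was lower in neurons, at 91.2 and 105 against 182 and 180, a difference of -1.02 that became 0.22 with the GC trend removed. The list's median turned to -0.08 without neuron replicate 1. In the cytoplasm the list's median was 1.01, with 21 of 27 genes higher in neurons, and by the interaction test 9 had a smaller difference in P-bodies (8.50% over all genes) and 0 a larger difference. DESeq2 gave 7 and 0, an unadjusted p under 0.05 gave 12 and 0, and under scaling by library size only the counts were 4 and 2.

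**Figure D2:**
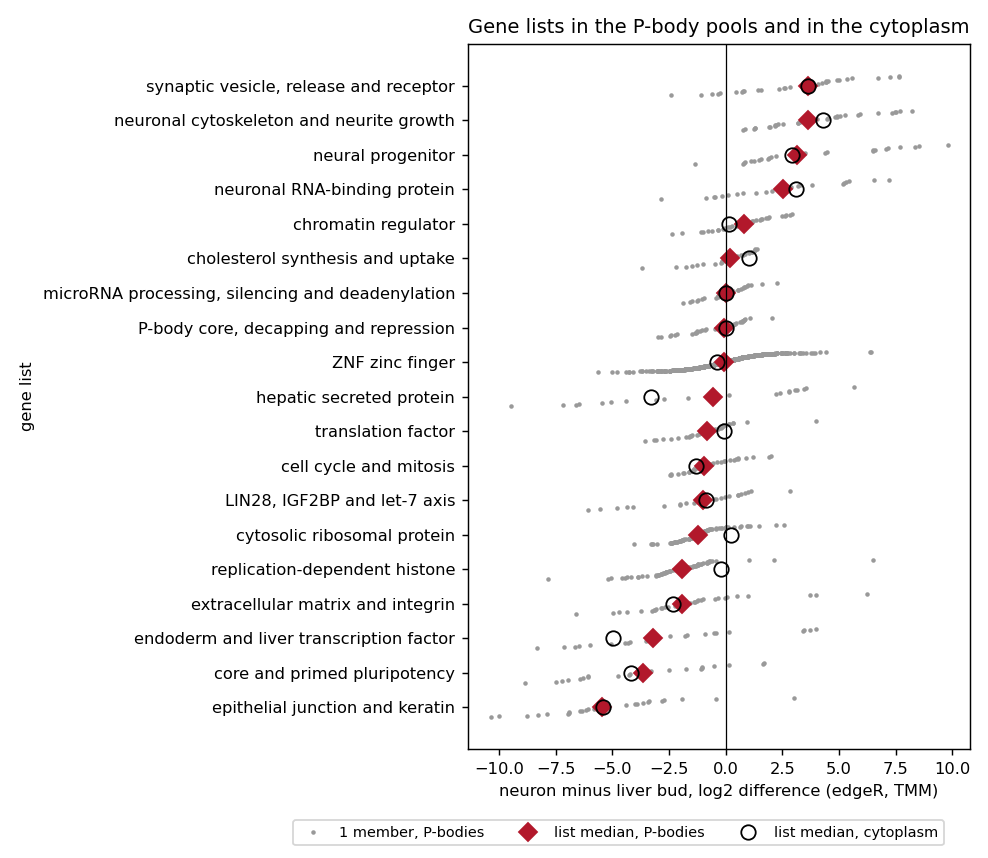
Log2 difference, neuron minus liver bud, of the called and uncalled members of 19 gene lists in P-bodies (grey points), with the list medians in P-bodies (red diamonds) and in the cytoplasm (open circles). The medians run from -5.48 for epithelial genes to 3.64 for synapse genes, and the P-body median lies to the left of the cytoplasm median for ribosomal protein, translation factor and histone genes and to the right of it for chromatin regulators.

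Among long noncoding RNAs chosen by name, 12 of 32 were higher in neurons and 13 in liver bud progenitors. The most abundant were on the liver bud side. SNHG14, a host of small nucleolar RNAs, was at 83.6 and 94.9 CPM against 802 and 810, OIP5-AS1 at 83.9 and 121 against 607 and 604, and MALAT1, a nuclear RNA, at 334 and 431 against 752 and 686. OIP5-AS1 overlaps another gene in antisense, and whether the counting used strand is not stated in the sources used here. Of small structured RNAs, 85 were tested, 1 (RN7SK) was called toward neurons and 6 toward liver bud progenitors. RN7SL2, the RNA of the signal recognition particle, was at 335 and 409 CPM against 328 and 274 (edgeR adjusted p = 0.302).

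Ribosomal RNA copies took 13.4% and 11.4% of counts in neurons and 12.8% and 12.5% in liver bud progenitors, overlapping ranges. Single copies swung between replicates of the same pool. RNA28SN3 was at 305 and 21812 CPM in the 2 neuron libraries, where the count was divided among copies, so no copy is read alone. Apart from these, 97.8% and 97.7% of counts in neurons and 97.4% and 97.4% in liver bud progenitors fell on protein-coding genes.

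Some abundant messages were held alike. CKAP5, a microtubule polymerase, was at 1975 and 2042 CPM against 1422 and 1452 (log2 0.34), DST (dystonin) at 1748 and 1896 against 1356 and 1388 (0.27), and KMT2E at 1724 and 1732 against 1334 and 1408 (0.19). MKI67 and ATRX, a chromatin remodeller at 1758 and 1990 CPM against 1748 and 1732, complete the 5 most abundant protein-coding genes whose 95% interval lay within -0.5 and 0.5. With the GC trend removed, ATRX had a difference of 1.21. CKAP5, DST and KMT2E still passed the test, so their small differences exceeded the spread between replicates. POLK, a DNA polymerase, was at 88.7 and 93.2 CPM against 121 and 120, a log2 difference of -0.54 that became 0.53 with the GC trend removed.

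The cytoplasm of the same cells differed in 51.8% of genes, so part of what separated the pools also separated the cells. Of the genes called in P-bodies, 3115 were higher in neurons in both fractions and 3781 were higher in liver bud progenitors in both. A further 849 genes were higher in neuron P-bodies without a call in the cytoplasm. They were rare messages, with median levels of 3.70 and 3.38 CPM in neuron P-bodies, 0.210 and 0.292 in liver bud P-bodies, 0.523 and 0.580 in neuron cytoplasm and 0.628 and 0.671 in liver bud cytoplasm. The 993 genes that were higher in liver bud P-bodies without a call in the cytoplasm were more abundant, with medians of 10.3 and 11 CPM in neuron P-bodies and 24.1 and 23.2 in liver bud P-bodies. A call in P-bodies alone is not a test of the difference between fractions.

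That test, the interaction over 8 libraries, called 3942 of 22268 genes (17.7%). With signs kept, the neuron minus liver bud difference was larger in P-bodies, or further toward neurons, for 2050 genes (9.21%). It was smaller for 1892 (8.50%), so 52.0% of calls were larger. This split depends on scaling. With library size only, which moved the median interaction by 0.36, 3520 were larger and 940 smaller, or 78.9%, and after a stricter filter on low counts 2601 and 1536, or 62.9%. Without neuron P-body replicate 1 the counts were 2772 and 3513 and without replicate 2 they were 2592 and 3628, while without any of the other 6 libraries they lay between 1193 and 1267 larger and between 1160 and 1611 smaller. Of the 849 genes above, the interaction was called for 366, and of the 993 for 454. Both sets were chosen by calls in the same 8 libraries, which raises these counts and sets their direction. They are therefore no separate test and are not comparable with the 17.7%. Under scaling by library size only, the histone list had 32 genes with a smaller difference, against 39 with TMM, and the chromatin list 30 with a larger difference, against 24.

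In 346 genes the direction was opposite between the fractions, with both called. Of these, 95 were higher in neuron P-bodies and in liver bud cytoplasm. PRTG (chr15:55611544-55743152, minus strand), at 1021 and 1107 CPM against 454 and 438 in P-bodies, stood at 85.9 and 88.6 CPM against 341 and 327 in the cytoplasm, an interaction of 2.83 on the log2 scale (edgeR adjusted p = 3.05e-10). POU2F1, a homeobox transcription factor of many cell types, was at 2105 and 2263 CPM against 953 and 950 in P-bodies and at 420 and 454 against 712 and 673 in the cytoplasm. ZMYND8, a reader of histone marks, had log2 differences of 0.53 in P-bodies and -0.83 in the cytoplasm.

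The other 251 genes were higher in liver bud P-bodies and in neuron cytoplasm. YBX1, a packaging protein of messages, was at 705 and 709 CPM against 1611 and 1499 in P-bodies and at 1036 and 1086 against 813 and 857 in the cytoplasm, an interaction of -1.84 (edgeR adjusted p = 5.28e-09). H4C5 had log2 differences of -0.84 in P-bodies and 1.68 in the cytoplasm. H4C3 had -2.94 and 0.39, but its cytoplasm levels overlapped, at 200 and 218 CPM against 215 and 202, so its cytoplasm difference came with the TMM scaling. As unscaled CPM, the cytoplasm libraries stood apart in the fitted direction for 91 of the 95 genes and for 133 of the 251.

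**Figure D3:**
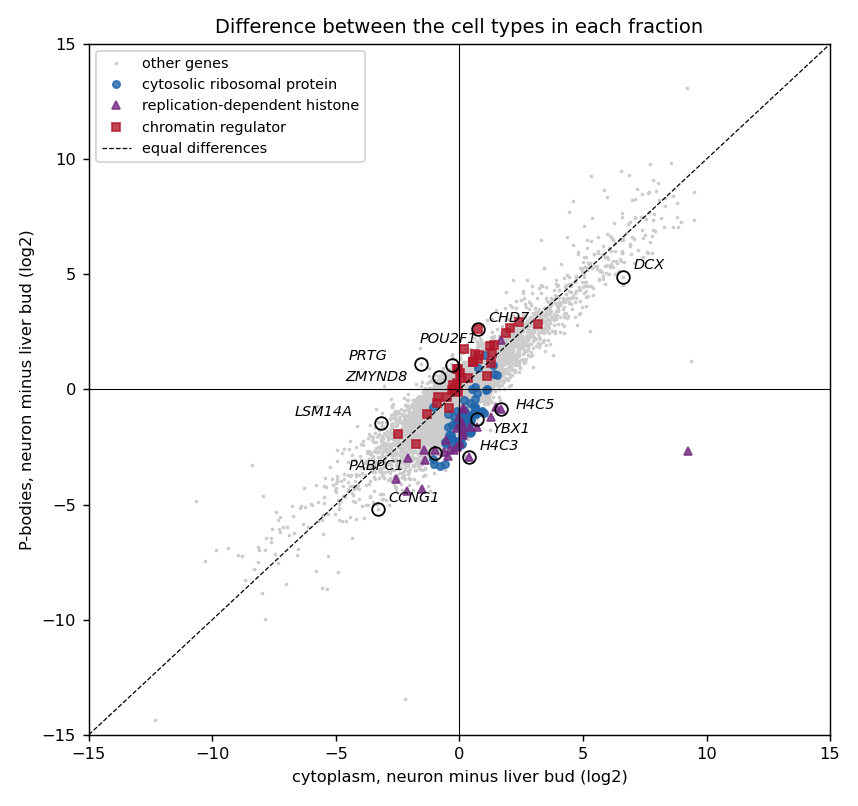
Log2 difference, neuron minus liver bud, in P-bodies (vertical axis) against that in the cytoplasm (horizontal axis) for genes averaging 20 CPM or more in the 4 P-body libraries, with ribosomal protein genes in blue, histone genes in purple, chromatin regulators in red, named genes circled and 1 gene beyond the horizontal limit not shown. Most ribosomal protein and histone genes lie below the dashed line of equal differences and most chromatin regulators on or above it.

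The difference between the pools followed the base composition of the transcripts. Over 6417 genes that averaged 20 CPM or more and had a GC value for the longest transcript, the difference and the GC content had a Spearman rho of 0.486, and in the cytoplasm of the same cells rho was 0.545. These are correlations across genes that share the same libraries, and are given as a description. Genes called higher in neurons had a median GC content of 51.3% and those called higher in liver bud progenitors 42.3%, beside 48.0% for all genes with a value. Among the genes in the lowest decile of GC content the median difference was -1.35, with 53 of 646 called toward neurons and 524 toward liver bud progenitors. In the highest decile it was 0.90, with 402 of 642 toward neurons and 79 toward liver bud progenitors. The replicates also moved with GC content, by 0.16 to -0.13 between the neuron libraries (rho 0.281 for replicate 1 minus replicate 2) and by -0.02 to 0.05 between the liver bud libraries. Whether the trend arose in the cells or in library preparation was not tested.

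**Figure D4:**
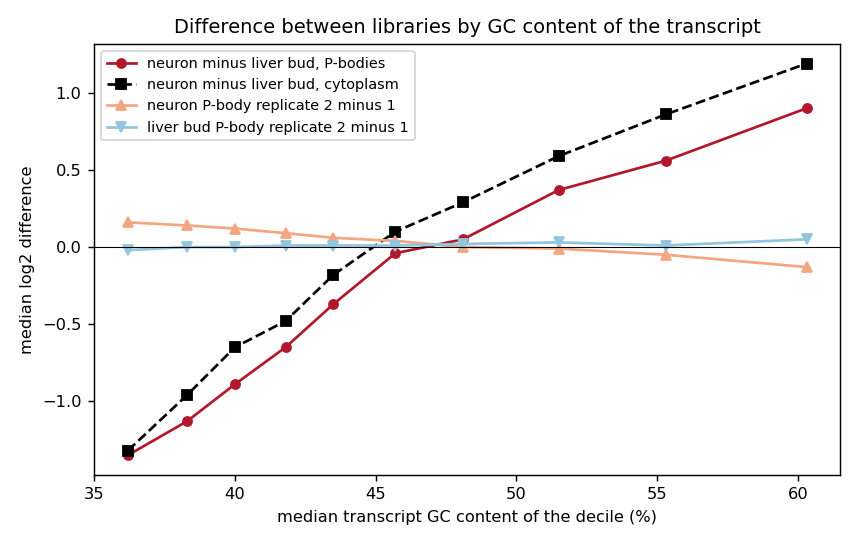
Median log2 difference by decile of transcript GC content for the neuron minus liver bud difference in P-bodies (red) and in the cytoplasm (black, dashed) and for replicate 2 minus replicate 1 of each P-body pool (orange and light blue), over genes averaging 20 CPM or more. The P-body line runs from -1.35 to 0.90, and the replicate lines stay between -0.13 and 0.16.

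Matches to microRNA seeds were counted in the same messages, since microRNAs bring repressed messages into contact with P-body proteins. The seeds, bases 2 to 8, pair with sites in the 3′ UTR, and 5 microRNAs were searched for the cell types compared: miR-9-5p for neural cells, let-7a-5p for differentiated cells, miR-302a-3p for pluripotent cells, miR-122-5p for liver and miR-17-5p for dividing cells. A neuronal microRNA, miR-124-3p, was chosen as well and is not analysed here. The mature sequences of 4 of them, from RefSeq annotation of GRCh38, are shown with the seed in capitals because the seed is the part that was searched.
miR-9-5p: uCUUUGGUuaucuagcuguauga
let-7a-5p: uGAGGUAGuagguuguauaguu
miR-302a-3p: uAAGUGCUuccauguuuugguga
miR-17-5p: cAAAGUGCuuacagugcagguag
The first listed locus of miR-9-5p lies at chr1:156420392-156420414 on the minus strand (MIR9-1), and that of let-7a-5p at chr9:94175962-94175983 on the plus strand (MIRLET7A1), each microRNA coming from 3 loci. miR-302a-3p comes from chr4:112648186-112648208 on the minus strand (MIR302A) and miR-17-5p from chr13:91350618-91350640 on the plus strand (MIR17). The seeds of miR-302a-3p and miR-17-5p share the letters AAGUGC, shifted by a base.

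The letters searched on the sense strand of the 3′ UTR of the canonical transcript (GENCODE 44) were ACCAAAG for miR-9-5p, CTACCTC for let-7a-5p, AGCACTT for miR-302a-3p, ACACTCC for miR-122-5p and GCACTTT for miR-17-5p, and matches of the last and of miR-302a-3p can overlap. Over 13700 genes with a 3′ UTR that averaged 1 CPM or more, the median P-body difference was -0.19. Genes with a match for miR-9-5p (15.4% of genes) had a median of -0.22 and those without of -0.19. For let-7a-5p (11.7%) the medians were -0.16 and -0.20, and for miR-302a-3p (25.7%) -0.19 and -0.20. For miR-17-5p (26.1%) they were -0.24 and -0.18. Genes with and without a match thus differed by at most 0.06 for these 4 microRNAs, but by more in narrower classes. Genes with 2 or more matches had medians of -0.36 for miR-17-5p and -0.35 for miR-302a-3p. Among 3′ UTRs over 4000 bases the medians for miR-17-5p were -0.34 with a match and -0.01 without, and among those of up to 500 bases the medians for miR-9-5p were -0.93 (65 genes) and -0.28. For miR-122-5p (9.62%) the medians were 0.09 with a match and -0.22 without, and the 151 genes with 2 or more matches had a median of 0.63, with 0.29 in the cytoplasm. Genes with a match had longer 3′ UTRs, with a median of 3260 bases against 1361 for miR-122-5p, and a match is not evidence of binding. For miR-122-5p the medians with and without a match were -0.82 (52 genes) and -0.29 for 3′ UTRs up to 500 bases. They were -0.14 and -0.22 over 500 to 1000 bases, and 0.19 and -0.16 over 1000 to 2000. Longer 3′ UTRs gave 0.12 and -0.19 up to 4000 bases, and 0.15 and -0.34 over 4000. Host transcripts of neuronal microRNAs were in the neuron pool, with MIR9-3HG at 13.7 and 17.4 CPM against 0.419 and 0.195 (log2 5.48). MIR302CHG, at 2.55 and 4.44 CPM against 4.93 and 3.99, was called toward neither pool (edgeR adjusted p = 0.474). Nor was MIR17HG, at 0.347 and 0.528 CPM against 1.05 and 0.682 (edgeR adjusted p = 0.48).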

How the data were processed

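P-body-seq counts of 4 P-body libraries were compared, 2 per cell type, and the 4 cytoplasm libraries of the same cells were used only for the interaction and for values beside a P-body value. The authors deposited whole-number counts per gene symbol for 22286 human genes, with a minimum total of 10 per gene. Their methods give the hg38 build with refGene annotation, and describe a salmon route for total RNA and an aligner with featureCounts for Smart-seq. The table does not say which made these columns, so reads of near-identical copies may have been divided or dropped, and use of strand is not stated in the sources used here. No mitochondrially encoded gene is in the table used here. The authors' tables of log2 fold change and p-values between P-body and cytoplasm (DESeq2) and the mouse counts were not used.

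Groups came from the labels. A gene without a count in any library of a comparison was not tested. Counts were fitted with edgeR 4.0.16 (glmQLFit and glmQLFTest, TMM, no covariate) in R 4.3.3 and called at an adjusted p under 0.05, and the interaction was fitted over 8 libraries. Tables were made with Python 3.11.15, pandas 2.3.3, scipy 1.17.1 and matplotlib 3.10.9. GC content was that of the longest transcript in GENCODE 44, which held 92.5% of symbols, and positions are those of the gene there, on GRCh38. The pipeline was tested on simulated data, with counts drawn from the real means and 200 of the genes shifted by a log2 difference of 1.58. In the P-body comparison 180 of these (90.0%) were called beside 45 false calls (22027 genes). In the interaction 163 (81.5%) were called beside 29 false calls (22247 genes). In both, the false part of the calls was above the nominal 0.05. The shifted genes were few, evenly up and down and drawn from those with higher counts, so these shares do not carry over to rare messages. Reads carry no molecular identifiers, so floors and counting intervals cover counting error only.

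The members, the gene lists and the rules were chosen with earlier results of these data known. Named were the 10 most abundant genes of each pool without ribosomal RNA copies, the 12 called genes per direction with the largest difference and at least 50 CPM in the higher pool, the 4 most abundant members of each list and its member with the largest called difference, LSM14A, DDX6, EDC4, POLK, TET2, POU5F1, AFP and ALB, the 3 genes per direction called in opposite directions in the fractions with the smallest interaction p and a mean of at least 20 CPM, and the 5 most abundant protein-coding genes with a 95% interval within -0.5 and 0.5. Some genes that these rules name are not reported here. Other list members, markers and H4C14 were chosen after their values were seen. Tried instead were filterByExpr, scaling by library size only or by RLE, DESeq2 1.42.0, 8 libraries in 1 fit, the replicate number as a block, no ribosomal RNA copies, leaving out each library and, chosen after seeing the data, removal of a smooth trend with GC content from each library.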

Additional observations from a re-analysis of the deposited data

Results flagged for a closer look

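For 26 of the 34 genes looked at, the neuron minus liver bud difference was not the same in P-bodies and in the cytoplasm by the interaction test (edgeR over 8 libraries), which called 17.7% of all genes. Of the 26, PRTG, POU2F1, ZMYND8, YBX1, H4C5 and H4C3 had been chosen for opposite calls and the smallest interaction p, so their call was fixed by that choice. Of the other 28 genes, named for abundance in a P-body pool or by name, 20 were called. The 17.7% covers rare messages too, so it is not a like baseline for these genes, and a share at like abundance was not computed. The values in brackets are interactions on the log2 scale, P-body difference minus cytoplasm difference. Differences keep their sign, so larger means further toward neurons and smaller means further toward liver bud progenitors. A larger value can be a narrower gap, as for LSM14A with -1.48 in P-bodies and -3.16 in the cytoplasm, and likewise for MKI67, DDX6, FN1, PRRC2C and POLK. A smaller value can be a wider gap, as for PABPC1 with -2.78 and -0.99, and likewise for CCNG1 and RPL4. The P-body difference was the larger for the regulators of chromatin and transcription CHD7 (2.03), ZNF462 (0.85), KMT2A (0.76), BAZ2B (1.4), POU2F1 (1.5), ZMYND8 (1.53) and TET2 (1.07). It was also larger for the proliferation marker and P-body factors MKI67 (0.79), LSM14A (1.84) and DDX6 (0.56), and for PRRC2C (0.30), FN1 (0.57), PRTG (2.83) and POLK (0.72). It was the smaller for the translation-related messages PABPC1 (-1.62), EEF1A1 (-1.53), RPL4 (-1.64) and YBX1 (-1.84). It was also smaller for the histones and the histone chaperone H4C5 (-2.36), H4C3 (-3.16) and NAP1L1 (-0.69). The same held for the cytoskeletal messages DCX (-1.55) and TUBA1A (-1.32) and for RN7SK (-1.19) and CCNG1 (-1.73). Among regulators of chromatin and transcription, TET1 (-0.46) was smaller too, unlike those above, and ZFHX4 (0.20) was not called. H4C5 and H4C3 have near-identical copies, LSM14A counts include the transgene and TUBA1A has close copies. A sample standing far from its group could not be looked for, since each group holds 2 libraries.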

How the results depend on the processing

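The counts of genes called in P-bodies stayed within 1.5 times of the reported ones under every alternative run, with 2894 to 5782 toward neurons and 3704 to 6434 toward liver bud progenitors. The side with more calls turned to neurons with the GC trend removed, filterByExpr and library size only. The interaction counts did not all stay within 1.5 times of the reported ones. With library size only, 3520 differences were larger in P-bodies and 940 smaller. Leaving out each library gave 1193 to 2772 larger and 1160 to 3628 smaller, with the highest values of both without a neuron P-body library. A pool left with a lone library is assumed to vary like the other groups, and the cause of the shifts was not tested. Library size only moved the median P-body difference by 0.14 and filterByExpr by 0.19.

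With the GC trend removed, the difference turned for FXR1 (0.83), DDX6 (0.82), CENPF (0.51), TOP2A (0.92), CENPE (0.39), SC5D (0.22), ATRX (1.21), EIF4G2 (0.65), ZNF91 (0.17), ZNF292 (1.22) and POLK (0.53), and for DDX6 it was 0.18 with filterByExpr. The list median turned for P-body core genes with the GC trend removed (0.32), RLE size factors (0.01), filterByExpr (0.09), library size only (0.08) and DESeq2 (0.01), and ranged from -0.11 to 0.02 on leaving out each library. For ZNF genes it was 0.24, 0.07 and 0.06 with the GC trend removed, filterByExpr and library size only. Leaving out each library, it ranged from -0.07 to 0.06 for microRNA factors and from -0.08 to 0.50 for cholesterol genes. Of 191 genes looked at, 170 kept direction and call with the GC trend removed and 187 with DESeq2.

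Deviations of neuron and liver bud P-body libraries with the same replicate number had a correlation of -0.051 over 13140 genes. The numbers therefore showed no pairing of P-body libraries across the cell types. Whether a P-body library pairs with the cytoplasm library of the same number was not tested, and the interaction fit treated them as independent. With the replicate block, 3847 genes were called toward neurons and 5017 toward liver bud progenitors, the interaction gave 1958 and 1882, and 188 of the 191 genes kept their call. The 3 that lost it were KMT2E, THY1 and PDGFRA. Depth limits the rare messages, for which a single count is a large part of the level.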
